A study of Mus musculus with 168 samples.

Results

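The cortex microRNAs of 8 heterozygous Q140 mice were compared with those of 16 control mice at 10 months of age, in 24 of the 168 libraries of the series. These were the libraries titled as heterozygous Q140, heterozygous Q20 or wild type (WT) at 10 months, 8 from each group. The knock-in mice carry 1 wild type Htt allele and 1 Htt allele with human HTT exon 1, and the number after Q is the length of its CAG repeat. The WT mice were littermates of the Q20 line, and every line was kept by crossing heterozygous males with C57BL/6J females. Each mouse was sequenced alone, and mice of the same sex and genotype came from different litters. The Q140 mice belong to another knock-in line than the Q20 and WT mice and came from other cages, so CAG length, line and cage cannot be told apart.

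MicroRNAs are short RNAs cut from hairpin precursors that repress the messenger RNAs they pair with. Pairing is led by the seed, bases 2 to 8 of the mature microRNA, and microRNAs with the same seed form a family that shares predicted targets. An expanded CAG repeat in HTT causes Huntington's disease, in which neurons of the striatum and the cortex are lost. Several microRNAs abundant in cortical neurons, among them miR-132 and miR-212, are induced by neuronal activity and act on dendrites and synapses.

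The families described most closely below are shown by their mature sequences in RefSeq (build GRCm38.p6), 5′ to 3′, with the seed in capitals. The 4 miR-181 microRNAs share 1 seed, and so do the members of each of the next 3 pairs.
miR-181a-5p: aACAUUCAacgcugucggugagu
miR-181b-5p: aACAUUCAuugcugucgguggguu
miR-181c-5p: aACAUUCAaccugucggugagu
miR-181d-5p: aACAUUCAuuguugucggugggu
miR-132-3p: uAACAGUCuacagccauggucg
miR-212-3p: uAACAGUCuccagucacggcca
miR-221-3p: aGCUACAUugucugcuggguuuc
miR-222-3p: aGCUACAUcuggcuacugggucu
miR-7a-5p: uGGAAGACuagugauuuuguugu
miR-7b-5p: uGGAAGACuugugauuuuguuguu
The next 5 are single microRNAs of other families whose levels are given further on.
miR-30c-5p: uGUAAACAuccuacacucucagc
miR-92a-3p: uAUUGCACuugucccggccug
miR-10b-5p: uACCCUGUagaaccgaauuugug
miR-29b-3p: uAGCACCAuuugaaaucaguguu
miR-543-3p: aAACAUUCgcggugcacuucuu
Both Mir181a-1 and Mir181a-2 give miR-181a-5p, Mir181b-1 and Mir181b-2 both give miR-181b-5p, and Mir7-1 and Mir7-2 both give miR-7a-5p. Likewise miR-30c-5p, miR-92a-3p and miR-29b-3p each come from a pair of precursors, so the share of reads counted for any 1 such copy is uncertain. Mir92-1 and Mir29b-2, the other precursors of miR-92a-3p and miR-29b-3p beside Mir92-2 and Mir29b-1, were not among the microRNAs tested. Levels below are per precursor, as the authors counted them.

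Library totals ran from 2041741 to 5566554 counts. Their median was 5035095 in Q140 and 4592349 in control mice, and 65.7% to 68.6% of the counts lay on the 327 microRNAs tested. Between mice of 1 group the log counts correlated at r of 0.9894 to 0.9984. The count table holds no Htt transcript, so the genotype was not checked from it. In 1 Q20 mouse labelled female the cage was a male one, and it was treated as male. The number after L in the library labels was read here as a lane, though the labels do not call it one. It was 7 for 6 and 8 for 2 Q140 libraries, while 7 of the control libraries had lane 6, which held no Q140 library. The microRNAs that mark cortical neurons and their neighbours were present, with Mir9-2 at 42100 ± 4010 CPM and Mir128-1 at 32700 ± 4120 CPM in Q140 mice (SD, n = 8). CPM is the normalised read count, scaled to a common library total by edgeR's TMM method.

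The Q140 and control cortex differed by little. No microRNA of 327 passed an FDR of 0.05 (0%) in edgeR's quasi-likelihood test, and none had 8 Q140 values clear of the 16 control values (0%). At an unadjusted p under 0.05, 22 microRNAs were higher in Q140 mice (6.73% of those tested) and 13 were lower (3.98%). The log2 fold change was positive for 156 and negative for 171 of the 327, with a median of -0.012. The lowest adjusted p, 0.121, belonged to Mir135b. The precision was high enough to bound most differences, since the 95% interval of 223 microRNAs, all among the 261 with a mean of at least 10 counts, lay within 0.5 log2 units of no change. The median half-width of that interval was 0.126 above 1000 counts, 0.156 between 100 and 1000, 0.325 between 10 and 100 and 0.846 below 10. Each microRNA named from here on is therefore given by its levels, and none of them passed the test between Q140 and control mice unless a sentence says otherwise. A lower level can come from fewer cells that make the microRNA or from less of it per cell, and bulk cortex cannot tell these apart.

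**Figure D1:**
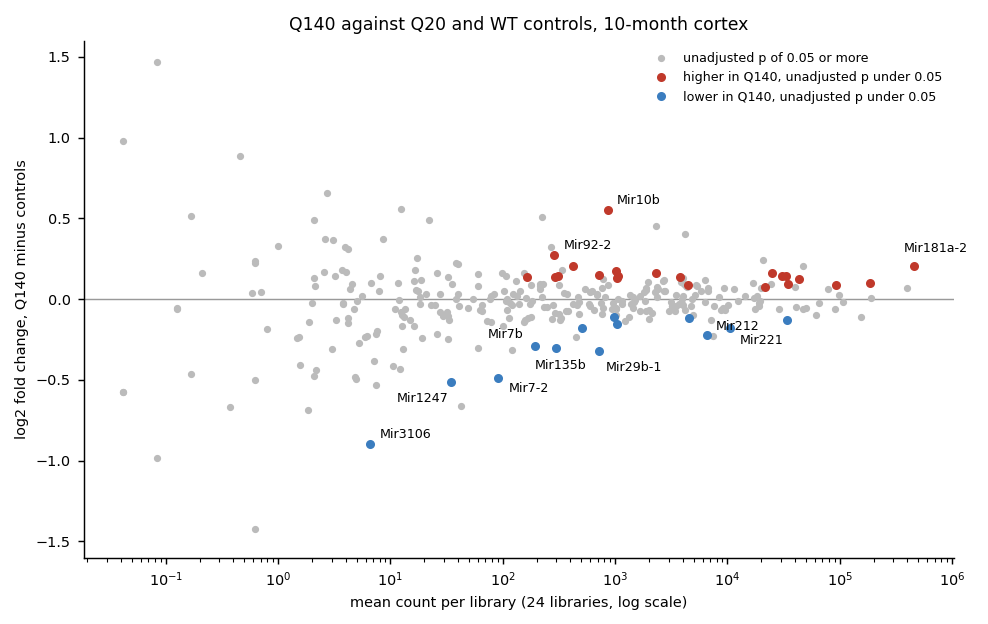
Log2 fold change of Q140 against the 16 control mice (y axis) by the mean count per library on a log scale (x axis), with 1 point per microRNA. The 22 red and 13 blue points have an unadjusted p under 0.05, grey points do not, and 1 microRNA lies beyond the axis limit of 1.6. Differences among abundant microRNAs stay small, and the widest scatter is at the lowest counts.

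Of 11 tested microRNAs that act on dendrites and synapses, 0 passed an FDR of 0.05. The log2 fold change was negative for 9 of them, beside 171 of all 327, and 4 were lower at an unadjusted p under 0.05 (Mir135b, Mir212, Mir138-1 and Mir132), beside 3.98% of all. The list median was -0.092, beside -0.012 over all 327. None was higher at that p. The list was chosen with earlier results of these data known. The study also names Mir135b, Mir212 and Mir132 from these samples, so these counts are not independent evidence of a direction. Mir188, which bears on synapse plasticity, was on the other side with a log2 fold change of 0.14 (SE 0.0741, adjusted p = 0.486).

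Mir135b (chr1:132198088-132198184, plus strand, an intron of Lemd1; GRCm38) makes miR-135b, a microRNA studied in axon growth and in stress responses. In Q140 mice its level ran from 51.1 through a median of 57.0 to 66.8 CPM, and in controls from 56.0 through 68.4 to 89.2 CPM. The ranges overlapped, but all 8 Q140 mice lay below the control median and 4 lay below every control. The means were 58.2 ± 6.5 CPM (SD, n = 8) and 71.7 ± 9.06 CPM (SD, n = 16), a log2 fold change of -0.30 (SE 0.0735, adjusted p = 0.121). The log2 fold change was -0.33 against Q20 mice (adjusted p = 0.114) and -0.30 against WT mice (adjusted p = 0.263). The log2 ratio of means was -0.296 in females and -0.308 in males. Its relative Mir135a-2 stood at 70.9 ± 13.6 CPM in Q140 and 77.4 ± 18.9 CPM in control mice, with a log2 fold change of -0.12 (SE 0.138, adjusted p = 0.822). Mir135b passed the FDR of 0.05 under some other settings, with an adjusted p of 0.0163 by DESeq2 and 0.00521 with all 7 genotypes of this age in 1 fit, and on the lanes that held Q140 libraries it was 0.397 with a log2 fold change of -0.25.

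Mir212 and Mir132 are neighbours on chromosome 11 (chr11:75173388-75173478 and chr11:75173682-75173747, plus strand, an intron of 1700016P03Rik) and share the seed shown above. Mir212 ran from 969 through 1360 to 1420 CPM in Q140 mice and from 1140 through 1520 to 1710 CPM in controls. All 8 Q140 mice lay below the control median, and 14 of the 16 controls lay above the highest Q140 mouse. The means of 1300 ± 149 CPM (SD, n = 8) and 1520 ± 156 CPM (SD, n = 16) gave a log2 fold change of -0.22 (SE 0.0678, adjusted p = 0.140). Mir132, the more abundant of the pair, ran from 5960 through 7030 to 7900 CPM in Q140 mice and from 6130 through 7650 to 9510 CPM in controls. Here 2 Q140 mice lay above the control median, and the log2 fold change was -0.13 (SE 0.0610, adjusted p = 0.452). The female Q140 mouse F2, described below, had the lowest Mir212 of the 24 mice (969 CPM) and the highest Mir132 of the Q140 mice (7900 CPM). Without the 3 libraries that stood apart, the log2 fold changes of Mir212 and Mir132 were -0.19 (adjusted p = 0.269) and -0.20 (adjusted p = 0.208).

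Mir138-1, one of the 2 precursors of miR-138, a regulator of dendritic spine size, stood at 956 ± 87.7 CPM in Q140 and 1040 ± 65.1 CPM in control mice (log2 fold change -0.12, SE 0.0501, adjusted p = 0.383). Mir138-2, which held most of the miR-138 counts, was at 9980 ± 1010 and 10400 ± 1460 CPM (log2 fold change -0.06, SE 0.0803, adjusted p = 0.837). Mir134, which limits spine growth, had a log2 fold change of -0.09 (SE 0.0518, adjusted p = 0.547). The 95% intervals of the log2 fold change ran from -0.15 to 0.03 for Mir485, from -0.13 to 0.07 for Mir329 and from -0.15 to 0.16 for Mir381.

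**Figure D2:**
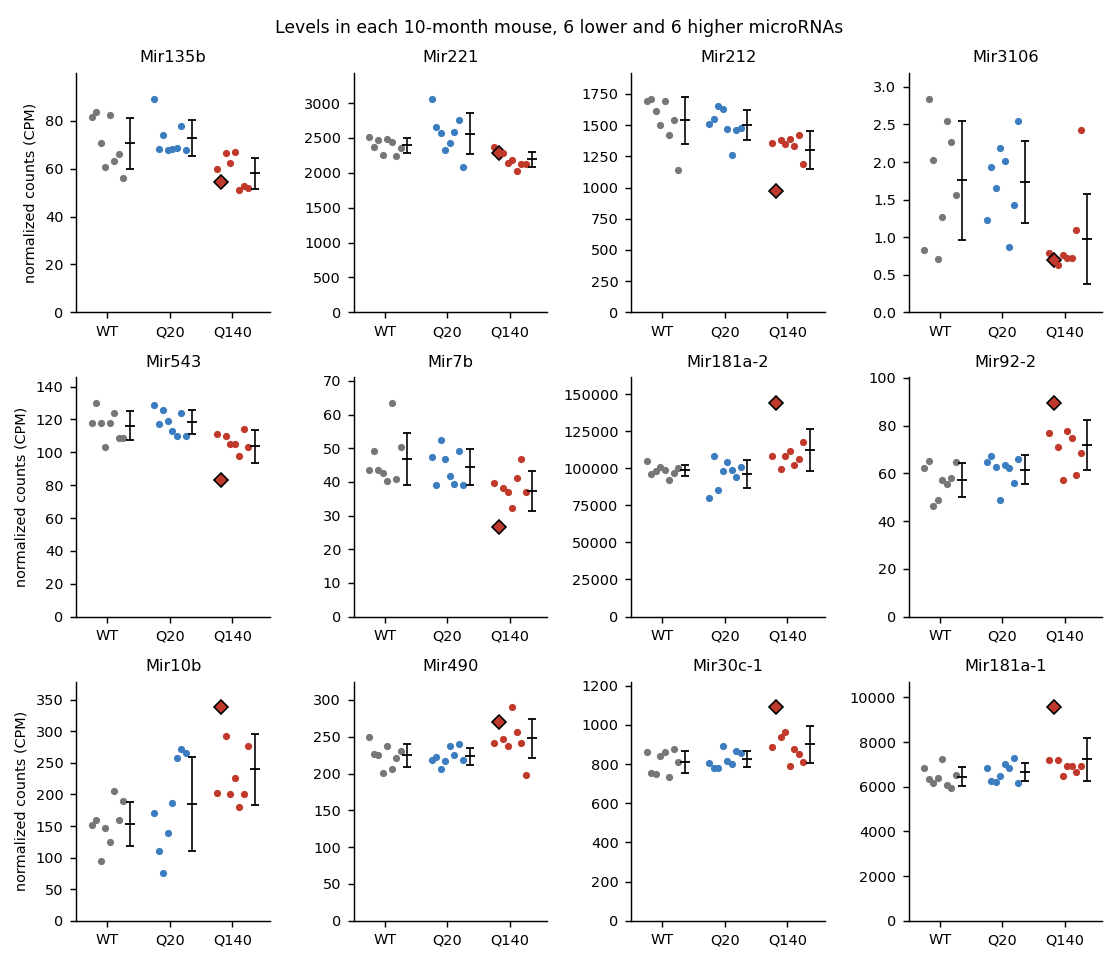
Normalised read count in CPM (y axes, from 0) in each 10-month WT, Q20 and Q140 mouse, for the 6 lower and the 6 higher microRNAs with the smallest unadjusted p. Points are mice, bars are the mean ± SD of 8 mice, and the black-edged diamond is Q140 mouse F2, which sits at 144000 CPM of Mir181a-2 and 969 CPM of Mir212. In every panel the Q140 mice overlap at least 1 control group.

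Neuronal identity microRNAs, which hold the neuronal expression programme, gave 12 negative and 1 positive log2 fold change among 13 tested. Of these 0 passed an FDR of 0.05. Over all 327, 171 were negative and 156 positive. This list too was chosen with earlier results of these data known. The list median was -0.072, and -0.037 without the 3 libraries that stood apart, beside -0.012 and -0.016 over all 327. At an unadjusted p under 0.05, 2 of the 13, both of the miR-7 family, were lower, beside 3.98% of all. Mir9-2 differed by 0.01 (SE 0.0607, adjusted p = 0.952), Mir128-1 by -0.11 (SE 0.0555, adjusted p = 0.486) and Mir137 by -0.04 (SE 0.0490, adjusted p = 0.830) on the log2 scale. Mir124a-3, a precursor of the neuronal miR-124, was at 90.2 ± 17 CPM in Q140 and 106 ± 23.3 CPM in control mice (log2 fold change -0.24, SE 0.121, adjusted p = 0.486).

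The miR-7 family had 3 members tested, and all 3 log2 fold changes were negative, beside 171 of all 327. Mir7b (chr17:56242988-56243098, plus strand) ran from 26.7 through 37.6 to 46.9 CPM in Q140 mice and from 39.1 through 43.5 to 63.4 CPM in controls. The lowest 5 of the 8 Q140 mice lay below every control, and 1 lay above the control median. The log2 fold change was -0.29 (SE 0.0913, adjusted p = 0.156). Mir7-2 was low and variable, at 15.9 ± 4.23 CPM against 22.2 ± 8.66 CPM (log2 fold change -0.49, SE 0.204, adjusted p = 0.383). Mir7-1, an intronic hairpin of Hnrnpk and the most abundant of the 3, was at 141 ± 18.6 CPM against 148 ± 10.1 CPM (log2 fold change -0.07, SE 0.0639, adjusted p = 0.762). miR-7 is known for binding the circular RNA Cdr1as.

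Mir221 and Mir222 are neighbours on the X chromosome (chrX:19146294-19146388 and chrX:19146893-19146971, minus strand) and make microRNAs best known for repressing the cell cycle inhibitor p27. Mir221 ran from 2020 through 2160 to 2370 CPM in Q140 mice and from 2080 through 2450 to 3060 CPM in controls. All 8 Q140 mice lay below the control median, and 10 controls lay above the highest Q140 mouse. The means were 2190 ± 112 CPM (SD, n = 8) and 2470 ± 230 CPM (SD, n = 16), a log2 fold change of -0.18 (SE 0.0508, adjusted p = 0.140). The difference was -0.23 against Q20 mice (adjusted p = 0.205), whose mean was 2560 ± 294 CPM, and -0.14 against WT mice (adjusted p = 0.263), at 2390 ± 102 CPM. Mir222 was at 1970 ± 247 CPM in Q140 and 2040 ± 115 CPM in control mice (log2 fold change -0.05, SE 0.0489, adjusted p = 0.754). Mouse F2 had the highest Mir222 of the Q140 mice, 2450 CPM, and without it the log2 fold change was -0.11 (adjusted p = 0.385). Without the 3 libraries both Mir221 and Mir222 were lower at an unadjusted p under 0.05, beside 17 of all 327.

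The other lower microRNAs belong to no list above. Mir29b-1, a member of the miR-29 family that represses collagens and BH3-only cell death genes, ran from 100 through 144 to 157 CPM in Q140 mice and from 98.2 through 170 to 225 CPM in controls. All 8 Q140 mice were below the control median and 14 of 16 controls were above the highest of them, with a log2 fold change of -0.32 (SE 0.104, adjusted p = 0.156). Its far more abundant relative Mir29a was at 23200 ± 2770 and 23500 ± 1470 CPM (log2 fold change -0.02, SE 0.0564, adjusted p = 0.930). Mir543, in the large imprinted cluster of chromosome 12, stood at 104 ± 9.82 CPM in Q140 and 117 ± 7.86 CPM in control mice, and all 8 Q140 mice lay below the control median (log2 fold change -0.18, SE 0.0546, adjusted p = 0.140). That cluster as a whole was balanced, with 16 positive and 20 negative log2 fold changes among 36 microRNAs and a median of -0.012. Mir320, made without Drosha cleavage, also had all 8 Q140 mice below the control median, but its difference was small at -0.11 (SE 0.0491, adjusted p = 0.383). Mir3106 and Mir1247 gave log2 fold changes of -0.90 (SE 0.273, adjusted p = 0.140) and -0.52 (SE 0.247, adjusted p = 0.452) on few reads, with at most 13 counts of Mir3106 and 88 of Mir1247 in any library.

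Among the higher microRNAs the miR-181 family stood first by abundance. miR-181a is among the most abundant microRNAs of the forebrain and is known for regulating AMPA receptor subunits and, in immune cells, receptor signalling. All 6 tested members had a positive log2 fold change, from 0.07 to 0.20, beside 156 of all 327. At an unadjusted p under 0.05, 4 of the 6 were higher, beside 6.73% of all. The 6 are not independent measurements, since the miR-181a copies give 1 sequence, as do the miR-181b copies. They also lie as neighbours, Mir181a-1 with Mir181b-1, Mir181a-2 with Mir181b-2 and Mir181c with Mir181d. Mir181a-2 (chr2:38852735-38852810, plus strand, opposite an intron of Nr6a1) ran from 99300 through 108000 to 144000 CPM in Q140 mice and from 80000 through 98600 to 108000 CPM in controls. All 8 Q140 mice lay above the control median and 4 above every control, with a log2 fold change of 0.20 (SE 0.0561, adjusted p = 0.140). Mir181a-1 was at 7230 ± 970 against 6550 ± 416 CPM (0.14, SE 0.0550, adjusted p = 0.379), and Mir181b-1 at 5910 ± 899 against 5280 ± 485 CPM (0.16, SE 0.0679, adjusted p = 0.383). Mir181c, on another chromosome, was at 8080 ± 519 against 7580 ± 430 CPM (log2 fold change 0.09, SE 0.0399, adjusted p = 0.383).

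Much of the difference in Mir181a-1 and Mir181b-1, and less of that in Mir181a-2, lay in 1 mouse. Q140 mouse F2 had the highest Mir181a-2, Mir181a-1, Mir181b-1 and Mir181d of the 8, at 144000, 9560, 7810 and 1420 CPM. Without it the log2 fold change of Mir181a-2 was 0.13 (adjusted p = 0.378) that of Mir181a-1 was 0.06 (adjusted p = 0.609) and that of Mir181b-1 was 0.075 (adjusted p = 0.700). Without the 3 libraries that stood apart the family median went from 0.138 to 0.051, beside -0.012 and -0.016 over all 327. There 1 member was higher at an unadjusted p under 0.05, beside 10 of all 327. The 3 include Q20 mouse F1, the lowest control for Mir181a-2 at 80000 CPM.

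The miR-30 family, which acts in development and autophagy, had the same shape on a smaller scale. All 6 tested members had positive log2 fold changes, beside 156 of all 327. At an unadjusted p under 0.05, 3 of the 6 were higher, beside 6.73% of all. Without the 3 libraries none of the 6 was higher at that p, beside 10 of all 327. Mir30a, one of the most abundant microRNAs here, was at 43800 ± 3470 CPM in Q140 and 40800 ± 2590 CPM in control mice (log2 fold change 0.10, SE 0.0446, adjusted p = 0.383). Mir30c-1, in an intron of Nfyc, was at 902 ± 96.8 against 818 ± 49.6 CPM (0.14, SE 0.0510, adjusted p = 0.312). Without mouse F2, the highest at 1090 CPM, its log2 fold change was 0.08 (adjusted p = 0.609). Its log2 ratio of means was 0.264 in females, F2 included, and 0.01 in males.

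The miR-17 and miR-92 families come mostly from related clusters that promote proliferation. Mir92-2, in the cluster on the X chromosome, was the clearest of them. It ran from 57.1 through 72.8 to 89.4 CPM in Q140 mice and from 46.1 through 62.3 to 67.1 CPM in controls. The highest 6 of the 8 Q140 mice lay above every control and the other 2 below the control median, with a log2 fold change of 0.27 (SE 0.0783, adjusted p = 0.140). Its difference was 0.21 without mouse F2 (adjusted p = 0.378). All 5 tested members of the miR-92 and miR-25 family and all 6 of the miR-17 family had positive log2 fold changes. Those of Mir106b, Mir20a and Mir32 were as small as 0.01, 0.03 and 0.02. Mir106a, Mir20b and Mir363 were at only 0.267, 0.797 and 2.26 CPM in Q140 mice. Of all 327 microRNAs, 156 were positive. In each family 1 member, Mir92-2 and Mir17, was higher at an unadjusted p under 0.05, beside 6.73% of all. Mir17 was at 38.6 ± 2.54 against 35.1 ± 2.45 CPM (log2 fold change 0.14, SE 0.0535, adjusted p = 0.379). Mir16-1, in Dleu2, belongs to another family, that of miR-15 and miR-16. All 8 Q140 mice lay above its control median, with a log2 fold change of 0.14 (SE 0.0596, adjusted p = 0.383). For Mir16-2 of that family 7 of the 8 lay below the control median, at 848 ± 104 against 873 ± 175 CPM (log2 fold change -0.03, SE 0.108, adjusted p = 0.942). Mir16-1 and Mir16-2 share a seed, and how reads were divided between them was not tested.

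**Figure D3:**
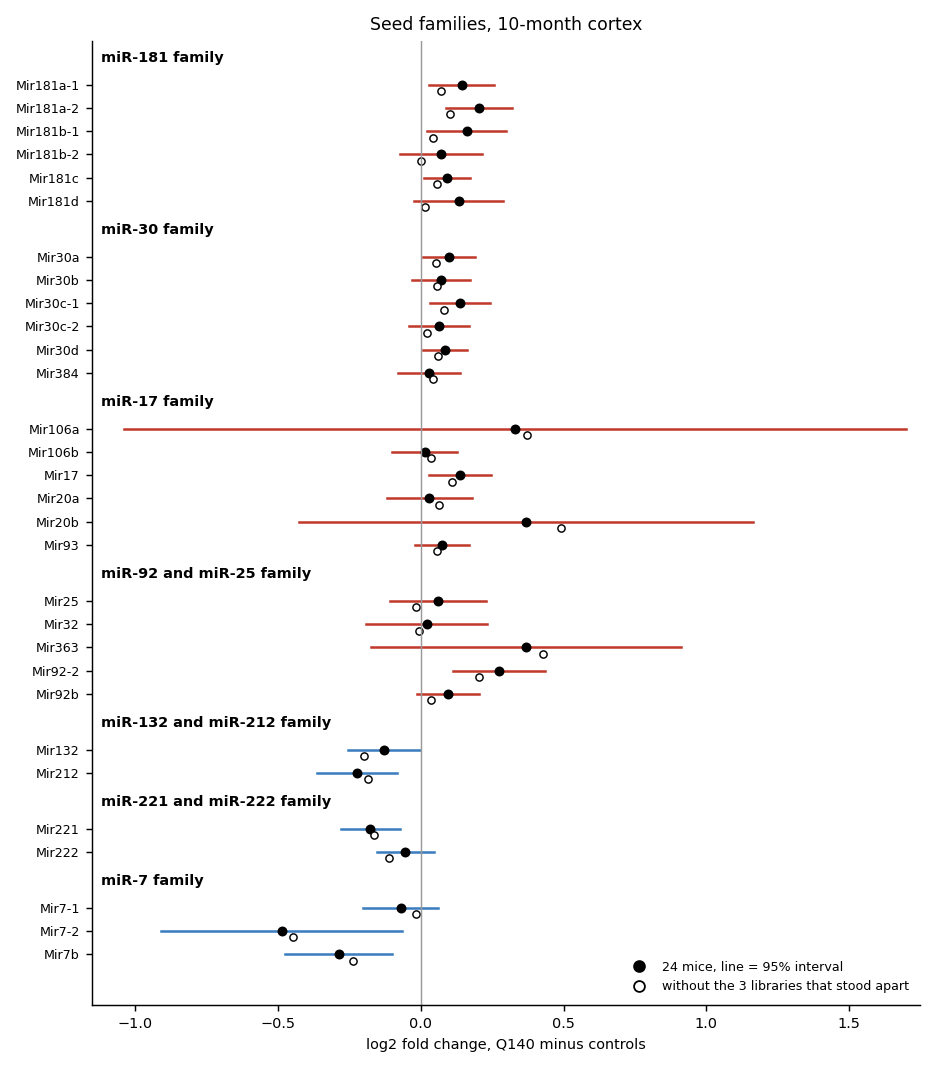
Log2 fold change of Q140 against control mice (x axis) for the members of 7 seed families. Filled points are the values of all 24 mice with their 95% interval, and open points the values without the 3 libraries that stood apart. All 6 miR-181 members lie to the right of 0, and their open points lie closer to 0 with a median of 0.051.

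Mir10b (chr2:74726070-74726137, plus strand, in introns of Hoxd3 and Hoxd4) is a Hox cluster microRNA of the hindbrain and spinal cord and had the largest difference among the higher microRNAs named here. It ran from 180 through 214 to 338 CPM in Q140 mice and from 75.9 through 159 to 272 CPM in controls. All 8 Q140 mice lay above the control median, and the log2 fold change was 0.56 (SE 0.177, adjusted p = 0.156). In females the Q140 mice were at 202, 338, 293 and 201 CPM and the controls reached 171 CPM. In males the Q140 mice were at 226, 180, 200 and 276 CPM and the controls reached 272 CPM. The log2 ratio of means was 0.979 in females and 0.088 in males, but the difference between the sexes was not past the threshold (interaction -0.89, SE 0.308, adjusted p = 0.489). By the steps and the Wald test of the study's methods, which shrink fold changes toward 0, Mir10b was at 0.12 (adjusted p = 0.219). Mir10a, its relative of the Hoxb cluster, was at 179 ± 51.1 and 170 ± 39.5 CPM (log2 fold change 0.07, SE 0.158, adjusted p = 0.907).

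Mir490, in an intron of the muscarinic receptor gene Chrm2, was at 248 ± 26.8 CPM in Q140 and 224 ± 13.3 CPM in control mice (log2 fold change 0.15, SE 0.0536, adjusted p = 0.312). Mir301, Mir152 and Mir203 completed the higher microRNAs with the smallest p, each with 7 of 8 Q140 mice above the control median and log2 fold changes of 0.16, 0.14 and 0.15 (adjusted p = 0.383 for each). Without mouse F2 these were 0.08, 0.12 and 0.10. Mir152 and Mir301 lie in introns of Copz2 and Ska2.

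Of the 8 microRNAs that the study names for both mouse and human cortex, 3 had a positive and 5 a negative log2 fold change. Over all 327 these counts were 156 and 171. At an unadjusted p under 0.05, 3 of the 8 were lower, beside 3.98% of all. That list was chosen on these samples and is not independent evidence of a direction. Mir615, in an intron of Hoxc5, stood at 1.02 ± 0.171 CPM in Q140 and 0.816 ± 0.439 CPM in control mice, with no more than 9 counts in a library (log2 fold change 0.32, SE 0.274, adjusted p = 0.755). Mir20a, Mir708, Mir99a and Mir138-2 had log2 fold changes of 0.03, -0.04, 0.05 and -0.06. Among 13 others named for CAG length, 10 were positive and 3 negative with a median of 0.104, beside -0.012 over all 327. At an unadjusted p under 0.05, 5 of the 13 were higher and 1 lower, beside 6.73% and 3.98% of all. Without the 3 libraries the 5 and 1 became 2 and 2, while the 22 and 13 of all 327 became 10 and 17. This list too was chosen with earlier results of these data known.

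Q140 mouse F2 stood apart from the other 7. Over the 261 microRNAs with a mean of at least 10 counts, F2 was the highest or lowest of the 8 Q140 mice for 161 (61.7%), 72 times the highest and 89 times the lowest. For the other 7 mice that number was 31 to 62 (11.9% to 23.8%). Its total of 4639783 counts was within the range of the rest, and Mir181a-2 alone took 13.5% of it, against 9.71% to 11.4% in the other Q140 and 8.18% to 10.7% in the control libraries. The outlier criterion of the study's methods, as rebuilt here, set aside F2 and the Q20 mice F1 and M2. Without these 3, no microRNA passed an FDR of 0.05, 10 were higher and 17 lower at an unadjusted p under 0.05, and 14 of these 27 were among the 35 found with all mice. Without F2 alone there were 26, of which 15 were shared.

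**Figure D4:**
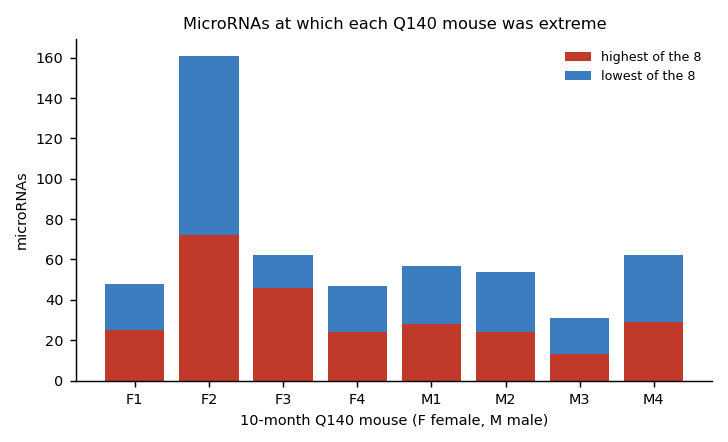
Number of microRNAs (y axis), of 261, at which each 10-month Q140 mouse (x axis, F female, M male) was the highest (red) or the lowest (blue) of the 8. Mouse F2 reaches 161, and the others 31 to 62.

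The 2 control groups were compared in the same way. Between Q20 and WT mice no microRNA passed an FDR of 0.05 by edgeR or by any other setting, and 12 of 325 had an unadjusted p under 0.05 (3.69%), beside 10.7% for Q140 against controls with its larger control group. Mir135b, Mir212 and Mir181a-2 had log2 differences of Q20 minus WT of 0.03 (SE 0.0891), -0.05 (SE 0.0699) and -0.05 (SE 0.0560). Mir10b was 0.18 higher in Q20 on that scale (SE 0.183, adjusted p = 0.833).

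Restricting the fit to lanes 7 and 8 left all 8 Q140 and 9 control libraries. No microRNA passed an FDR of 0.05 and 22 had an unadjusted p under 0.05, of which 15 were among the 35. There Mir181a-2, Mir92-2 and Mir10b had log2 fold changes of 0.18, 0.33 and 0.47, and Mir212, Mir221 and Mir7b of -0.22, -0.12 and -0.26. With lane as a covariate in the fit of all 24 mice, no microRNA passed an FDR of 0.05 either. The lane-adjusted values of single microRNAs are not given here.

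Markers of other cell types overlapped between the groups. The 6 microRNAs of the choroid plexus all had positive log2 fold changes, beside 156 of all 327. Their median was 0.349, beside -0.012 over all, and none had an unadjusted p under 0.05. The 6 were not independent, since several rose and fell together from mouse to mouse. Mir448, Mir1298 and Mir1912 were at 124, 1340 and 12.1 CPM in Q140 mouse F1, and at 17.7, 221 and 0.69 CPM in F2. Without the 3 libraries the choroid plexus median was 0.54, beside -0.016 over all. There 2 of the 4 tested ciliated cell microRNAs were higher at an unadjusted p under 0.05, beside 10 of all microRNAs. With all mice 0 of the 4 were. The choroid plexus microRNAs' summed level was 2990 to 10900 CPM in Q140 and 2630 to 12500 CPM in control mice, most of it Mir204. Ciliated cell microRNAs summed to 568 to 1720 and 469 to 1550 CPM, and those of the hindbrain and Hox clusters, Mir10b among them, to 327 to 540 and 172 to 497 CPM with Mir196a-1 at 0 in all 24 libraries. Oligodendrocyte microRNAs summed to 3740 to 5380 and 3630 to 5050 CPM, those of microglia and leukocytes to 2370 to 3080 and 2150 to 3670 CPM, and Mir126a of the endothelium to 7970 to 10000 and 7060 to 10600 CPM. The sums for smooth muscle and pericytes were 8310 to 16400 and 7880 to 15200 CPM, for erythrocytes 2350 to 3270 and 2210 to 3000 CPM, for epithelium and olfactory bulb 360 to 1350 and 356 to 1750 CPM, and for liver 1110 to 1340 and 1030 to 1220 CPM. By log2 fold change, 7 of 8 tested epithelium and olfactory bulb microRNAs were negative. For hindbrain and Hox clusters 3 of 3 were positive, for microglia and leukocytes 5 of 5 and for liver 3 of 4. Over all 327, 171 were negative and 156 positive. At an unadjusted p under 0.05, 1 Hox cluster and 1 liver microRNA were higher, beside 6.73% of all. The part of these cell types in any difference above was not tested.

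In a direct comparison with the next longer repeat, which shares the 8 Q140 mice with the values above, Q175 mice differed from Q140 mice at 15 of 324 microRNAs past an FDR of 0.05 (4.63%), 4 higher (1.23%) and 11 lower (3.4%). The Q175 line arose from Q140 by spontaneous expansion. Mir615 was 3.86 ± 1.38 CPM in Q175 and 1.02 ± 0.171 CPM in Q140 mice, a log2 fold change of 1.88 (SE 0.235, adjusted p = 6.09e-05). The lower ones included Mir135b at 47.1 ± 3.06 CPM (-0.30, SE 0.0682, adjusted p = 0.0234), Mir221 at 1880 ± 98.7 CPM (-0.21, SE 0.0449, adjusted p = 0.0132) and Mir222 at 1650 ± 111 CPM (-0.24, SE 0.0644, adjusted p = 0.0435). Mir132 was lower too, at 5930 ± 443 CPM (-0.23, SE 0.0602, adjusted p = 0.0387). Mir29b-1 went the other way, at 174 ± 29.2 CPM in Q175, 137 ± 20.4 CPM in Q140 and 172 ± 30.9 CPM in control mice (0.35 for Q175 against Q140, SE 0.0955, adjusted p = 0.0438). Mir667 and Mir467d were the other higher ones, at 0.22 and 0.56. Of the rest, Mir204, Mir448, Mir1298 and Mir1912 are choroid plexus microRNAs that varied widely among Q140 mice, as Mir204 did from 2760 to 9380 CPM. Mir375, Mir194-2 and Mir344d-1 had log2 fold changes of -0.60, -0.29 and -0.40.

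These calls depended on the libraries used. Without Q140 mouse F2 there were 21, of which 13 were among the 15, and Mir29b-1 and Mir467d no longer passed. With lane as a covariate 4 passed (Mir615, Mir667, Mir375 and Mir221), and on lanes 7 and 8 alone only Mir615 did, with a log2 fold change of 1.91 and an adjusted p of 9.74e-05.

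The difference between Q140 and control mice was also tested for another size in males than in females. No microRNA passed an FDR of 0.05 by edgeR or by any other setting, and 27 of 327 had an unadjusted p under 0.05 (8.26%), falling to 11 without the 3 libraries. The lowest adjusted p was 0.308, for Mir3093 (interaction 0.64). Mir135b and Mir221 had interactions of -0.01 (SE 0.148) and -0.04 (SE 0.102).

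Other mice of the same lines were sampled at 2 and 6 months. At 2 months, 8 Q140 mice against 16 controls gave no microRNA past an FDR of 0.05 by edgeR and 1 by DESeq2, with 8 of 326 at an unadjusted p under 0.05 (2.45%). The one called by DESeq2 was Mir7b (adjusted p = 0.0483), which had by edgeR the lowest adjusted p of that age, 0.133, with a log2 fold change of -0.25 (SE 0.0625). Mir7-2 was at -0.28 at 2 months (SE 0.106, adjusted p = 0.996), beside -0.49 at 10 months. Mir135b, Mir221 and Mir212 were at 0.04, 0.01 and 0.02, and Mir181a-2 at 0.08, at 2 months (adjusted p = 0.996 for each). At 6 months, 8 Q140 mice against 8 Q20 mice gave no microRNA past the threshold by edgeR and 5 by DESeq2. At an unadjusted p under 0.05 there were 24 of 323 (7.43%). The Q140 and Q20 libraries of that age shared no lane number, so genotype and lane cannot be told apart there. A further 8 libraries are labelled 6-month WT, but the study's methods list no such mice, and they were not used here. The 5 were Mir667, Mir122 and, from the epithelium and olfactory bulb markers, Mir429, Mir200b and Mir96 (adjusted p = 0.0259 for each). In edgeR's fit of that age Mir135b stood at -0.16 (SE 0.0796, adjusted p = 0.612), Mir212 at -0.11 (SE 0.0623, adjusted p = 0.615) and Mir7b at -0.02 (SE 0.131, adjusted p = 0.995). Mir122, a liver microRNA, had the lowest adjusted p at 6 months, 0.0877, with a log2 fold change of 1.52. By the steps and shrunken Wald test of the study's methods it was 0.15 (adjusted p = 0.0181).

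The change of the Q140 difference between 2 and 10 months was tested in 1 fit. No microRNA passed an FDR of 0.05 by edgeR or by any other setting, and 15 of 328 had an unadjusted p under 0.05 (4.57%). Mir135b had the lowest adjusted p, 0.179, with a difference between the ages of -0.33 (SE 0.0899). Mir212, Mir543 and Mir29b-1 followed at -0.24 (SE 0.0795, adjusted p = 0.324), -0.21 (SE 0.0683, adjusted p = 0.324) and -0.45 (SE 0.154, adjusted p = 0.326), and Mir7b was at -0.03 (SE 0.110, adjusted p = 0.971).

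**Figure D5:**
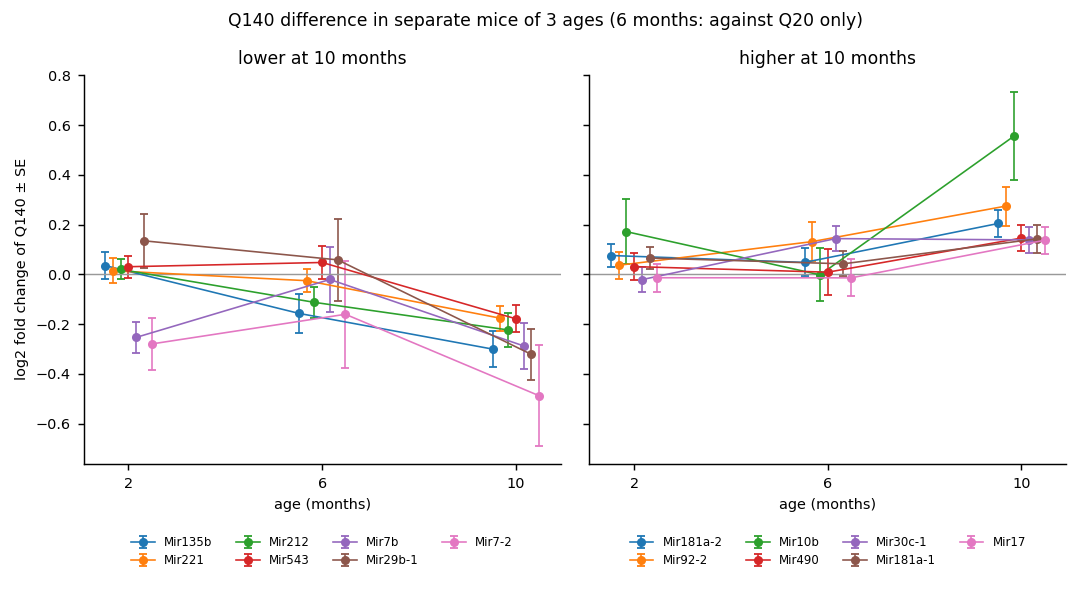
Log2 fold change of Q140 (y axis, ± SE) by age in months (x axis) for 7 microRNAs lower and 7 higher at 10 months. Each age is other mice, and the controls at 6 months are Q20 mice alone, which share no lane number with the Q140 mice. Lines only join the values of 1 microRNA, and points are shifted sideways for clarity. Mir135b lies at 0.04, -0.16 and -0.30, and Mir7b at -0.25, -0.02 and -0.29.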

How the data were processed

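Small RNA from the cortex was sequenced in 168 mice. The authors clipped the reads (base calls by CASAVA 1.8.2, per the submitters' processing notes), aligned them to mm10 with STAR and deposited estimated counts of the Ensembl transcripts, which are not normalized. The methods name HTSeq, but 48.1% of the values above 0 are not whole, so counts were rounded. The authors' FPKM table was not used. Of 480 microRNAs in the study's list of microRNAs, 329 matched a transcript by symbol in the GRCm38 annotation. The other 151 were not analysed here. MicroRNAs with at least 1 count in a fit were tested.

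The test was edgeR 4.0.16 in R 4.3.3 (TMM, robust quasi-likelihood F test, two-sided, sex as covariate, and the library code at 6 months), with Benjamini-Hochberg adjustment and an FDR of 0.05. Other tests used DESeq2 1.42.0. The code was tested on simulated data. Mature sequences matched 310 of the 327 microRNAs. The named microRNAs were the 12 higher and 12 lower ones with the smallest p and at least 10 counts in a library, and the members of the lists. Members and lists were chosen with earlier results of these data known. Mir188, Mir29a, Mir222, Mir10a, Mir30a, Mir181c, Mir181d, Mir3093, Mir122 and the calls of Q175 against Q140 outside the lists were named after their values were seen.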

Additional observations from a re-analysis of the deposited data

Results flagged for a closer look

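For 39 microRNAs and the library totals, each group of 8 mice was searched for 1 value far from the rest by Dixon's criterion, where chance gives about 1 in 20 groups. This marked 14 of 120 groups. Of these, 5 were Q140 mouse F2, which was highest for Mir181a-2 (144000 CPM, next 118000), Mir181a-1 (9560 CPM, next 7220), Mir181b-1 (7810 CPM, next 6410) and Mir30a (52100 CPM, next 43700) and lowest for Mir20a (19.1 CPM, next 26.5). Q140 mouse M4 was highest for Mir3106 (2.42 CPM, next 1.09).

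The others were control mice. Q20 mouse F1 was highest for Mir135b (89.2 CPM, next 77.9), F3 for Mir7-2 (35.2 CPM, next 21.1) and M2 for the choroid plexus microRNA Mir204 (11100 CPM, next 6420). WT mouse M2 was highest for Mir7b (63.4 CPM, next 50.3) and Mir7-2 (47.0 CPM, next 29.0), F2 for Mir152 (77.7 CPM, next 65.4) and Mir16-1 (8770 CPM, next 7480), and F1 for Mir29b-1 (220 CPM, next 187).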

How the results depend on the processing

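The count of microRNAs past an FDR of 0.05 between 10-month Q140 and control mice was 0 with all mice and 0 to 3 under 15 alternatives, of which 1 was chosen after seeing the data. It was 1 with the library total alone, 1 with DESeq2 and 3 with all 7 genotypes in 1 fit (Mir135b, Mir221 and Mir212), and 0 to 1 when each mouse was left out in turn. Mir135b was the 1 without Q140 mouse M1 (adjusted p = 0.0305), WT mouse F4 (0.0304) or WT mouse M4 (0.0228). The count at an unadjusted p under 0.05 was 22 to 89 under the alternatives and 24 to 35 with a mouse left out. Q175 against Q140 gave 15 calls, and 7 with the library total, 9 with filterByExpr, 4 with all transcripts, 4 with lane as a covariate and 1 on lanes 7 and 8. The 2-month count of 0 became 1 with DESeq2 and 1 with the steps of the study's methods, and the 6-month count of 0 became 5 and 2. The direction turned for 4 microRNAs near 0: Mir20a (-0.009 with the library total, and -0.011 to 0.077 with a mouse left out, where it turned without Q140 mouse M2, Q20 mouse M1 or WT mouse M4), Mir99a (-0.004 against Q20 alone), Mir667 (-0.037 against WT alone, -0.006 without the 3 libraries) and Mir330 (-0.004 against WT alone). The cause was not tested. The steps of the study's methods, whose Wald test shrinks fold changes by a prior, gave -0.163 for Mir135b, 0.118 for Mir10b, -0.088 for Mir7-2 and -0.066 for Mir3106, all in the same direction.

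The replicate numbers of the titles did not pair the mice, since 7 of 22 same-numbered pairs deviated together at r above 0.1 (-0.575 to 0.636). With the number as a replicate block, 0 microRNAs passed between Q140 and control mice and 11 between Q175 and Q140. Below 10 counts the intervals were too wide to show differences of the size seen elsewhere. The cage and the line of Q140 mice cannot be told apart from the repeat length.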
